A study of Sus scrofa with 14 samples.

Results

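The comparison described here sets early porcine embryonic stem cell-like cells (pESCLC) at an early passage against the primary outgrowths of blastocysts, both grown with FGF2, with 2 samples in each group. It uses 4 of the 14 samples of the series and the 13977 of 19588 genes that reached 10 normalized counts in 2 or more of those samples. The pESCLC-primary group held primary outgrowths of porcine blastocysts on irradiated mouse embryonic fibroblasts. The labels call them outgrowths of the inner cell mass (ICM), while the methods describe seeding of intact blastocysts as well as of ICM isolated by immunosurgery, and which of these gave the 2 samples is not given in the sources used here. The pESCLC-F group held the samples labelled A1 and A2, kept in F, the medium supplemented with FGF2. The study speaks of pESCLC-F as a single line with duplicates of different passages, whereas the labels give passage 2 for both samples, so these are not taken as independent lines. The study places both groups in F, which for the embryo work it equates with the medium of porcine embryonic stem cells. Its methods describe that medium with fetal bovine serum and F in general with serum replacement, both with FGF2, and name no change of medium between the groups. Neither group was reprogrammed, and F held neither LIF nor an inhibitor. Which outgrowth gave rise to the pESCLC-F samples is not given in the sources used here, so that passage and differences between embryos cannot be told apart. Each group rests on 2 samples, and the p-values measure the spread between them, which may be partly technical. RNA of the mouse feeder cells could add to the pig counts, and its share was not tested.

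Polyadenylated RNA was sequenced from all samples. The pESCLC-primary libraries had 17887375 and 16493637 reads on genes, and the pESCLC-F libraries 19541270 and 19214420. The values below are normalized counts, that is, reads on a gene divided by 1 size factor per library, and not by gene length, so that the order of genes by these values depends on their length as well. A value of 1 normalized count was close to 1 read in these 4 libraries. Over the 13977 genes, log2(normalized count + 1) correlated with a Pearson r of 0.972 between the pESCLC-primary libraries and 0.969 between the pESCLC-F libraries, and with 0.927 to 0.942 between libraries of different groups; genes are not independent replicates. The outgrowth libraries differed in Y-linked reads. EIF1AY had 269.5 and 8.74 normalized counts in pESCLC-primary replicates 1 and 2 and 15.7 and 9.10 in pESCLC-F replicates 1 and 2, and KDM5D had 68.9 and 1.09 against 3.14 and 3.03. Replicate 1 of the outgrowths therefore stood apart from the other 3 libraries in these genes.

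In the pig blastocyst the ICM separates into the epiblast, from which the embryo and pluripotent cell lines are made, and the hypoblast, whose derivatives line the yolk sac. Visceral endoderm of the yolk sac takes up and secretes plasma proteins, as the liver does later, under transcription factors such as HNF4A, FOXA2, GATA4 and GATA6. The amnion and the surface ectoderm arise from the epiblast side and are marked by the TFAP2 factors, among others, while WNT, BMP, FGF and Nodal signals pattern the embryo.

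Limma on log2(normalized count + 1) called 446 of the 13977 genes (3.19%), that is, gave them an adjusted p (Benjamini-Hochberg) no higher than 0.05. Of these, 201 (1.44%) were higher and 245 (1.75%) were lower in pESCLC-F. The sizes differed between the directions. Genes that rose did so by a median of 1.24 on the log2 scale, and those that fell by a median of 3.24. A change of at least 3 on the log2 scale, with a call by limma, makes a DEG here and was reached by 160 genes (1.14%), 24 higher (0.172%) and 136 lower (0.973%). Of the genes called, 10 that were higher and 84 that were lower passed the filter on low values through the group in which they were high only, and these had to differ. In all 446 the ranges of the groups did not overlap, which was so for 3935 genes (28.2%) with pESCLC-F higher and 3417 (24.4%) with pESCLC-F lower among all genes tested. DESeq2 on the recovered reads called 1325 genes (9.48%), among them all 201 that limma called higher and 244 of the 245 that it called lower, with 741 (5.3%) higher and 584 (4.18%) lower. The count of calls by limma rested on both outgrowths, since 8 were made without pESCLC-primary replicate 1 and 106 without replicate 2, where a single sample stands for a group and is assumed to vary like the others. Without replicate 1 of the outgrowths no gene of the lists below was called, apart from 2 of the hypoblast list.

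**Figure D1:**
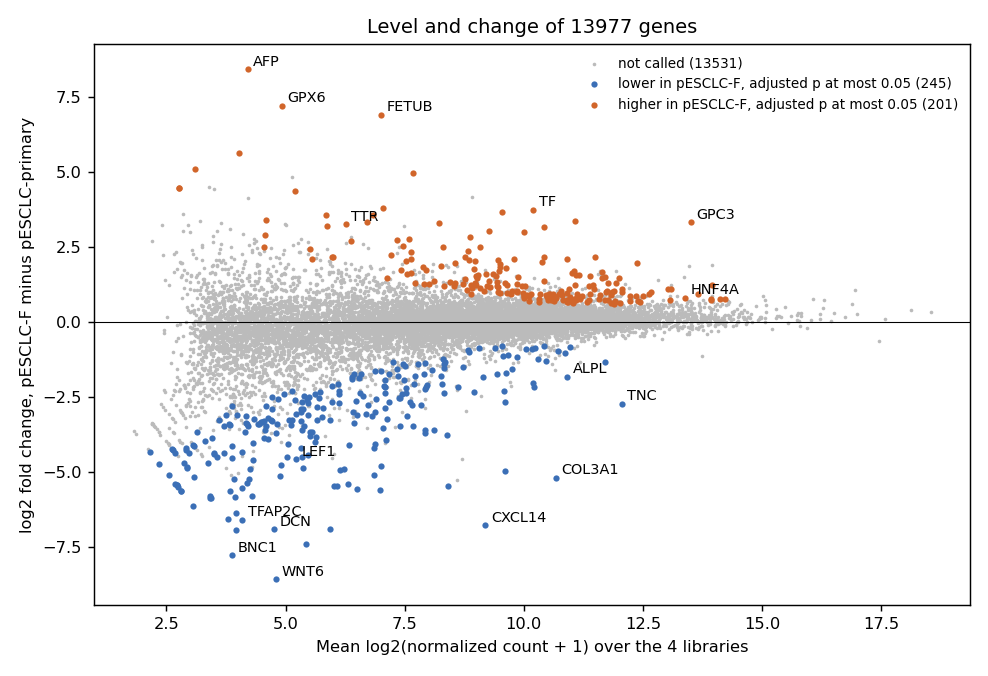
Mean log2(normalized count + 1) over the 4 libraries (x axis) against the log2 fold change of pESCLC-F relative to pESCLC-primary (y axis) for the 13977 genes tested, with the 201 called higher in orange and the 245 called lower in blue. AFP, at the top, had no read in the outgrowths, and WNT6, at the bottom, had a single read in pESCLC-F.

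The genes that rose included secreted proteins of the hypoblast and visceral endoderm. Of 59 symbols on a list of hypoblast and extraembryonic endoderm genes, 51 were in the table and 47 were tested. Of these, 14 were higher, none was lower and 33 were not called by limma, with a median log2 fold change of 0.88 beside 0.02 over all genes tested. In 37 of the 47 the pESCLC-F samples lay above both outgrowths, and in 1 below, beside 28.2% and 24.4% of all genes tested. Without pESCLC-primary replicate 1 or replicate 2, limma called 2 or 6 members higher. DESeq2 called 25 higher and none lower, and 33 of the 47 had an unadjusted limma p no higher than 0.05, as had 2870 of all genes tested. Of the 47, 5 passed the filter on low values through pESCLC-F only and had to be higher. In bulk RNA more cells of a type and more RNA per cell cannot be told apart, and this holds for each group of genes below.

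AFP (ENSSSCG00000008949, chr8:69677690-69698864), alpha-fetoprotein, the main plasma protein of the yolk sac, had no read in either outgrowth and 126 and 929 normalized counts in pESCLC-F replicates 1 and 2. It was at least 344-fold higher in pESCLC-F, against a floor of 3 reads over the group (limma adjusted p = 0.0156). Both pESCLC-F samples expressed it, at levels that differed from each other, and it had no read in any of the other 10 samples of the series. FETUB (ENSSSCG00000011800, chr13:124480456-124494197), a fetuin secreted by liver, went from 31.5 and 3.28 in the outgrowths to 1677 and 1185 in pESCLC-F, 6.90 ± 0.88 (SE) on the log2 scale (limma adjusted p = 0.0210). TF, transferrin, the iron carrier of plasma, had 340.3 and 298 against 3695 and 4995, a rise of 3.75 ± 0.18 on that scale (limma adjusted p = 0.00405). The same symbol is carried by 2 RefSeq genes on chromosome 13, so no coordinate is given and reads may be shared between them. In all 3 genes both pESCLC-F samples lay above both outgrowths, which the filter on low values fixed for AFP. Only for TF were the samples of each group close to each other.

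FGB, TTR and F2 were higher as well. FGB, the beta chain of fibrinogen (chr8:74598170-74607409), had 113 and 77.6 in the outgrowths and 1056 and 844 in pESCLC-F (log2 fold change 3.32, limma adjusted p = 0.00759). TTR, transthyretin, which carries thyroid hormone and retinol-binding protein, had 23.6 and 24.0 against 343 and 164 (3.26). F2, prothrombin (chr2:15793257-15819151), had 118 and 259 against 1495 and 1045 (2.83). The ranges of the groups did not overlap in any of these. APOA2 and APOM, apolipoproteins of high-density lipoprotein, rose by 2.52 and 1.20. The APOM call (limma adjusted p = 0.0452) was lost when 0.1 in place of 1 was added to the counts (0.0528). LRP2 and DAB2, a receptor of the apical surface of visceral endoderm and the adaptor for its endocytosis, rose by 1.49 and 1.52, and LAMA1 and SPARC, components of basement membrane, by 1.10 and 0.75. CTSV, a lysosomal cysteine protease, rose by 0.77.

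Several members had higher values in both pESCLC-F samples without passing the test, and they are named after their values were seen. Of these, FGG, AHSG and KNG1 passed the filter on low values through pESCLC-F only and had to be higher. FGG, the gamma chain of fibrinogen, had 4.92 and 0 against 38.7 and 69.8 (log2 fold change 4.45, limma adjusted p = 0.0661). AHSG, fetuin A, had 3.93 and 0 against 52.3 and 46.5 (4.50, limma adjusted p = 0.0527). KNG1, kininogen, had 1.97 and 0 against 17.8 and 13.1 (ratio 14.9, 95% exact counting interval 3.78 to 129, limma adjusted p = 0.0975). AHSG, FETUB and KNG1 lie in this order in one stretch of chromosome 13, at chr13:124426313-124438848, chr13:124480456-124494197 and chr13:124521276-124557384. In all 3 both pESCLC-F samples lay above both outgrowths, which the filter fixed for AHSG and KNG1. ALB, albumin, which lies before AFP on chromosome 8 (chr8:69643427-69663152), had 17.7 and 8.74 against 14.7 and 4.05 and was not called (-0.60). The APOA1 values of 68583 and 111894 and 193978 and 172057 did not overlap either, but the gene missed the threshold (1.06, limma adjusted p = 0.1).

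**Figure D2:**
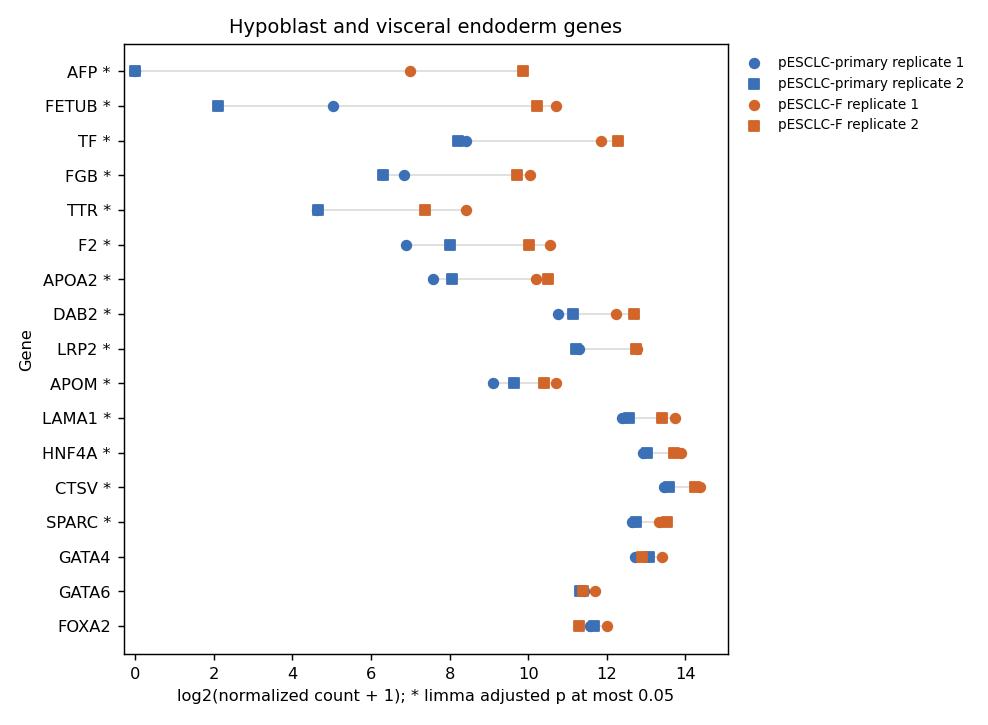
Normalized counts, as log2(value + 1), of the 14 listed hypoblast and visceral endoderm genes called higher in pESCLC-F (with an asterisk) and of GATA4, GATA6 and FOXA2, in each of the 4 libraries. The orange pESCLC-F points lie right of the blue pESCLC-primary points for the 14 genes, from AFP, with no read in the outgrowths, to SPARC, with 0.75 on the log2 scale.

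Transcription factors of this lineage were present in the outgrowths as well as in pESCLC-F. HNF4A (chr17:46783772-46847505) had 7811 and 8335 normalized counts in the outgrowths and 15090.0 and 13369 in pESCLC-F, a rise of 0.82 ± 0.13 (limma adjusted p = 0.0345), and at most 15.7 in any of the other 10 samples. GATA4 had 6692 and 8623 against 10840.5 and 7679.9, GATA6 2740.5 and 2561 against 3319 and 2674 and FOXA2 3029.7 and 3287 against 4081 and 2510.4, so that the groups overlapped for all 3. None was called, with log2 fold changes of 0.26, 0.17 and 0.02. A list of 18 endoderm regulators, drawn up after values were seen, held the RNA-editing cofactor A1CF beside transcription factors. Of 17 members tested, 4 were higher and none was lower, with a median of 0.71. In 9 of the 17 both pESCLC-F samples lay above both outgrowths and in none below, beside 28.2% and 24.4% of all genes tested. DESeq2 called 8 of the 17 higher and none lower. Limma called none without pESCLC-primary replicate 2 and 2 without pESCLC-F replicate 1 or without replicate 2. Beside HNF4A these were ONECUT2 (2.78), HNF4G (1.62) and the RNA-editing cofactor A1CF (2.07), which acts on the transcript of apolipoprotein B. The summed level of the 51 hypoblast genes was 530348 and 693307 in the outgrowths and 976865 and 864822 in pESCLC-F, and FN1, fibronectin, made up 300932, 380116, 441781 and 410266 of these.

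The label of embryonic stem cell-like cells was checked against pluripotency genes. NANOG, a core pluripotency factor, had 287 and 178 in the outgrowths and 239.7 and 343 in pESCLC-F, with overlapping groups. LIN28A, an RNA-binding protein of pluripotent cells, had 5185 and 5313 against 5798 and 4975. Neither was called (0.34 and 0.03). Of 38 symbols listed for core and naive pluripotency, 25 were in the table and 19 were tested, of which none was higher and 2 were lower, with a median of -0.01 (none called without pESCLC-primary replicate 2). These were ALPL, tissue-nonspecific alkaline phosphatase, which fell from 3474 and 3751 to 1217 and 869.8 (-1.81, limma adjusted p = 0.0122), and MYC, a growth regulator, which fell from 171 and 144 to 44.0 and 49.6 (-1.73, limma adjusted p = 0.0436). ESRRB had 43.3 and 39.3 against 10.5 and 11.12 and KLF4 30.5 and 6.56 against 32.4 and 49.6, both naive-state factors, and neither was called (-1.84, limma adjusted p = 0.0895, and 1.41, limma adjusted p = 0.352). TET3, a demethylating enzyme, had 911 and 878 against 1158 and 851 and was not called (0.15). POU5F1 and SOX2 were not analysed here. The 4 libraries thus held pluripotency markers and hypoblast factors together, and which cells carried which cannot be read from bulk values.

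Among genes of the primed epiblast, 1 of 16 tested was lower and none was higher (median -0.13). The direction of the calls turned with the pESCLC-F sample that was kept, with 4 lower and none higher without replicate 1 and 2 higher and none lower without replicate 2. The gene called was SFRP2, a secreted WNT modulator, with 111 and 50.3 against 6.28 and 1.01 (-4.31), and it alone of the 16 passed the filter through the outgrowths only and had to be lower. NODAL, the ligand that maintains the primed state, had 3856 and 4372 against 9532 and 4677, and OTX2, a factor of epiblast and anterior visceral endoderm, 3565 and 4568 against 6664 and 4904. Both outgrowths lay below both pESCLC-F samples for NODAL and OTX2, but neither was called (0.70 and 0.50). CER1, an inhibitor of Nodal, had 2481 and 1855 against 1565 and 611 (-1.13, not called).

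Some genes of blood clotting and of its dissolution, beyond those on the hypoblast list, were higher in pESCLC-F. On a list of 32 genes of clotting and its dissolution, drawn up after values were seen, 22 were tested, with 10 higher and 1 lower (median 2.08). Members of the hypoblast list were not taken out, so the counts of both lists may share genes. Of the 22, 4 passed the filter on low values through pESCLC-F only, PLG among them, and 2 through the outgrowths only, F5 among them, and these had to differ in that direction. Limma called 0, 6 and 6 of them higher without pESCLC-primary replicate 1, pESCLC-primary replicate 2 or pESCLC-F replicate 2. PLG, plasminogen (chr1:7062399-7109521), had 0 and 1.09 in the outgrowths against 23.0 and 42.5 in pESCLC-F, a ratio of 63.6 with a 95% exact counting interval of 11.01 to 2550.2 (limma adjusted p = 0.0391). PLAU, urokinase, which activates plasminogen, had 39.3 and 26.2 against 259.6 and 424 (3.33, limma adjusted p = 0.0157). Its receptor PLAUR had 60.0 and 74.3 against 269 and 386 (2.25). Both the protease and its receptor were thus higher, and so was SERPINF2, the inhibitor of plasmin (674 and 1280.0 against 4200.3 and 3804). PROC, protein C, an anticoagulant protease, rose by 2.17, its cofactor PROS1 by 0.79 and F3, tissue factor, by 2.06. F5, the cofactor of prothrombin activation, went the other way, with 292 and 44.8 in the outgrowths and 1.05 and 1.01 in pESCLC-F (ratio 170.1, 95% exact counting interval 46.7 to 1410.3, limma adjusted p = 0.0342). Its level differed between the outgrowths themselves.

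The other genes with the highest fold changes were of mixed function. GPX6, a glutathione peroxidase (chr7:22256013-22267992), had 1.97 and 1.09 against 316 and 432, a ratio of 241 with a 95% exact counting interval of 82.3 to 1173 (limma adjusted p = 0.00469). GPER1, a membrane estrogen receptor, had 0 and 4.37 against 86.9 and 151 (5.64), and TFF2, a trefoil peptide of mucosa, 0 and 1.09 against 41.9 and 23.3 (ratio 62.6, 95% exact counting interval 10.8 to 2511). HSD17B2, which inactivates estradiol, had 4.92 and 9.84 against 102 and 274 (4.39). In each of these 4 genes the outgrowths had few reads or none. All 4 passed the filter on low values through pESCLC-F only, so both pESCLC-F samples had to lie above the outgrowths. PDZK1, a scaffold protein of apical membranes, had 296 and 144 against 3249.9 and 2169 (3.68), and RNF128, a ubiquitin ligase, 453 and 971 against 7443 and 6470.2 (3.38). Of the 8 genes with the highest mean levels among those called higher, GPC3, a cell-surface proteoglycan of fetal liver and yolk sac on chromosome X (chrX:109536495-109973605), moved by the most. It had 3028 and 4403 in the outgrowths and 41589 and 32682 in pESCLC-F, 10.0-fold by the group means and 3.34 ± 0.22 on the log2 scale (limma adjusted p = 0.00469). The others rose by less. They were NPC2, a carrier of lysosomal cholesterol (1.24), MYOF, myoferlin (0.93), HNF4A, CTSV, GOLM1, a Golgi protein (0.77), the glycolytic enzyme PGK1 (0.76) and APLP2, a relative of the amyloid precursor (0.74). The APLP2 call (limma adjusted p = 0.0460) was lost when 0.1 in place of 1 was added to the counts, and with a replicate block (0.0507 and 0.0589).

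The genes that fell by the most included markers of amnion and surface ectoderm. WNT6 (ENSSSCG00000036932, chr15:120901471-120917359), a WNT ligand of surface ectoderm, had 526 and 553 normalized counts in the outgrowths and 1.05 and 0 in pESCLC-F. The ratio was 1048, with a 95% exact counting interval of 188 to 41425 (limma adjusted p = 0.00469). BNC1 (ENSSSCG00000001798, chr7:51651179-51679781), basonuclin, a zinc finger protein of basal epithelium, had 222 and 209 in the outgrowths and no read in either pESCLC-F sample, at least 139.9-fold lower against a floor of 3 reads over the group (limma adjusted p = 0.00469). For both genes the outgrowths were close to each other and the pESCLC-F samples at or near 0. Both genes, and TFAP2C, passed the filter on low values through the outgrowths only and had to be lower. TFAP2C (chr17:57164400-57174923) had 193 and 142 against 0 and 2.02 (ratio 164, 95% exact counting interval 45.1 to 1360.5, limma adjusted p = 0.0129). TFAP2B had 521 and 731 against 8.37 and 17.2 and TFAP2A 161 and 146 against 13.6 and 17.2, with log2 fold changes of -5.57 and -3.25 (limma adjusted p = 0.00676 and 0.0157). These 3 factors act in surface ectoderm, amnion and trophectoderm. TP63, a regulator of stratified epithelium, fell from 569 and 540.0 to 70.1 and 35.4 (-3.45).

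On a list of 18 amnion markers, drawn up after values were seen, 17 were tested and 11 were lower and none was higher, with a median of -3.45. Of the 17, 7 passed the filter through the outgrowths only and had to be lower. The count and the median are therefore partly set by the filter. In all 17 both pESCLC-F samples lay below both outgrowths, which the filter fixed for the 7, beside 24.4% of all genes tested. Without pESCLC-primary replicate 1 or 2, limma called 0 or 5 of them. GABRP, a GABA receptor subunit, had 2020.4 and 378 against 12.6 and 23.3 (-5.59), VTCN1, an immune checkpoint ligand, 75.7 and 14.2 against no read in either pESCLC-F sample (at least 30.2-fold lower against a floor of 3 reads over the group), and HAND1, a factor of extraembryonic mesoderm and trophoblast, 307 and 41.5 against 2.09 and 2.02 (-5.23). In these 3 genes replicate 1 of the outgrowths was far above replicate 2. Both pESCLC-F samples were below both outgrowths, which the filter fixed for VTCN1 and HAND1. The summed level of the 17 members in the table was 12415 and 9320 in the outgrowths and 2624 and 2527 in pESCLC-F, with MSX2 the most abundant at 2384 and 1927 and 1442 and 1137 (not called). ISL1 (158 and 151 against 91.1 and 22.3) and GATA3 (1858 and 1683 against 209 and 789.9) were not called.

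The trophectoderm list overlapped with these genes. Of its 34 members tested, 7 were lower and 2 higher (median -0.72), against 2 lower and none higher without pESCLC-primary replicate 2 and 13 lower and 2 higher by DESeq2. Of the 34, 6 passed the filter through the outgrowths only and had to be lower. The lower ones included TFAP2A, TFAP2B, TFAP2C, HAND1 and TP63, given above. DLX3, a homeobox factor of trophoblast and epidermis, was lower too (-3.46). DAB2 and ITGA2, an integrin subunit (1.44), were higher. CDX2, which defines the trophectoderm, had 388 and 26.2 against 4.19 and 14.2 and was not called (-3.54, limma adjusted p = 0.181). KRT8 and KRT18, keratins of simple epithelium, had 230905 and 265084 against 335906 and 317022 and 106335 and 129060.0 against 142399 and 144488 and were not called. Of 14 neural and surface ectoderm genes tested, 4 were lower and none was higher (median -1.25), namely TFAP2A, TFAP2B, TP63 and CRABP2, and 2 were lower without pESCLC-primary replicate 2.

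Of 45 genes of WNT signaling tested, 8 were lower, 1 was higher and 36 were not called, with a median of -0.08. Of the 45, 5 passed the filter through the outgrowths only and had to be lower, WNT6, WNT2, FZD10 and SFRP2 among them. Without pESCLC-primary replicate 1, pESCLC-primary replicate 2 or pESCLC-F replicate 2, limma called 0, 2 and 5 of them lower. Beside the ligand WNT6, WNT2 had 35.4 and 47.0 against 3.14 and 1.01 (-3.86), and the receptor FZD10 194 and 31.7 against 1.05 and 0 (ratio 227, 95% exact counting interval 40.4 to 9024). LEF1, the factor through which the pathway acts on DNA, had 291 and 110.4 against 3.14 and 13.1 (-4.56, limma adjusted p = 0.0369). AXIN2 and NKD1, feedback inhibitors that the pathway induces, had 598 and 407 against 53.4 and 111 (-2.66) and 407 and 103 against 10.5 and 7.08 (-4.42). In each of these genes both outgrowths lay above both pESCLC-F samples. The secreted antagonists SFRP1 and SFRP2 fell by 2.03 and 4.31 on the log2 scale. WNT11, a ligand of the noncanonical branch, rose from 989 and 733 to 2349 and 2051 (1.37). CTNNB1, beta-catenin, was not called (17328 and 17401 against 18219.6 and 20368).

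**Figure D3:**
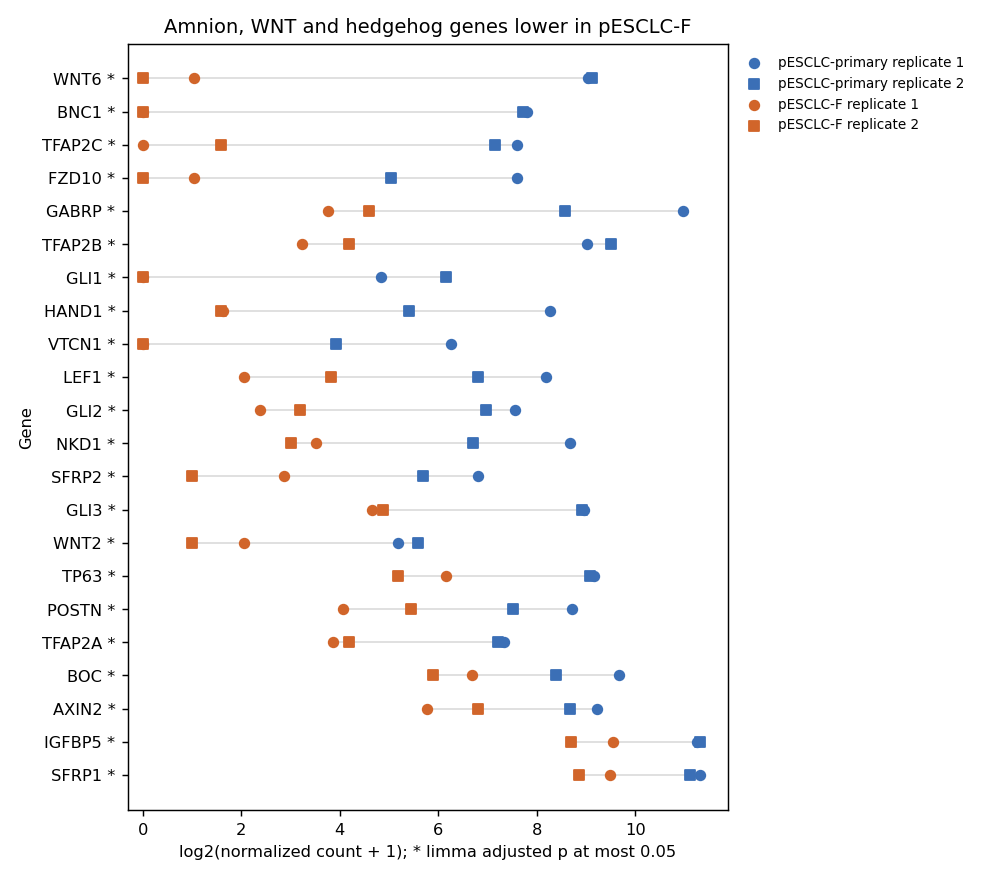
Normalized counts, as log2(value + 1), of the called members of the amnion, WNT and hedgehog lists that were lower in pESCLC-F, in each of the 4 libraries. All blue pESCLC-primary points lie right of the orange pESCLC-F points, and the outgrowths lie apart from each other for GABRP, HAND1 and FZD10.

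Hedgehog and retinoid genes were examined with lists drawn up after values were seen. Of 12 hedgehog genes tested, 4 were lower and none was higher (median -1.04), and 1 was lower without pESCLC-primary replicate 2. Of the 12, 3 passed the filter through the outgrowths only and had to be lower, GLI1 and GLI2 among them. The called genes were the transcription factors GLI1, GLI2 and GLI3 and the coreceptor BOC. GLI3 had 498 and 483 against 24.1 and 28.3 (-4.18, limma adjusted p = 0.00469), GLI2 189 and 125 against 4.19 and 8.09 (-4.49) and GLI1 27.5 and 70.0 against no read in either pESCLC-F sample (at least 30.9-fold lower against a floor of 3 reads over the group). The receptor PTCH1 had 1269.9 and 1050.4 against 1308 and 1161, and the ligands SHH and IHH 441 and 954 against 1053 and 669 and 689 and 791 against 1589.9 and 888. None of these 3 was called. Of 19 retinoid genes tested, 4 were lower and 1 was higher (median -0.49), against 1 lower and none higher without pESCLC-primary replicate 2. Of the 19, 2 passed the filter through the outgrowths only and had to be lower, STRA6 and ALDH1A2. CRABP2, which carries retinoic acid to the nucleus, had 3251 and 1576 against 62.8 and 40.5 (-5.46, limma adjusted p = 0.00564). CYP26C1, which degrades retinoic acid, had 259 and 636 against 13.6 and 12.1 (-4.88), STRA6, a receptor for retinol uptake, 31.5 and 78.7 against 0 and 1.01 (ratio 105, 95% exact counting interval 18.4 to 4174), and ALDH1A2, which makes retinoic acid, 38.4 and 38.3 against 3.14 and 4.05 (-3.10). Both pESCLC-F samples lay below both outgrowths in all 4. ALDH1A2 (limma adjusted p = 0.0410) was not called when 0.1 in place of 1 was added to the counts, or with a replicate block (0.0540 and 0.0515). CYP26A1, a relative of CYP26C1, was not called (8944 and 7012 against 8319 and 5728).

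HOX genes set position along the body axis. Their summed level over the 34 in the table was 3752 and 510.5 in the outgrowths and 194 and 212 in pESCLC-F, so that replicate 1 of the outgrowths stood apart. Of the 34 genes, 23 were tested and 3 were lower and none was higher by limma (list drawn up after values were seen), 13 were lower by DESeq2 and 17 had an unadjusted limma p no higher than 0.05. Of the 23, 15 passed the filter through the outgrowths only and had to be lower in pESCLC-F, so the median of -3.35 is no measure of the family. They included HOXB2, with 149.5 and 63.4 against 7.33 and 1.01 (-4.59), and HOXD3, with 157 and 30.6 against 2.09 and 2.02 (-4.53). Replicate 1 of the outgrowths was the higher one in both. HOXA9 had 471 and 14.2 against 1.05 and 2.02 and was not called (limma adjusted p = 0.128). Its levels in the outgrowths also differed from each other.

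Some genes of mesenchyme and fibrillar matrix were lower as well. Of 28 fibroblast and mesenchyme genes tested, 7 were lower and none was higher (median -0.45), with 0 or 2 called lower without pESCLC-primary replicate 1 or 2. Of the 28, 3 passed the filter through the outgrowths only and had to be lower, DCN and LUM among them. DCN, decorin (chr5:91678601-91713925), had 309.9 and 279.8 against 1.05 and 2.02 (ratio 192, 95% exact counting interval 65.2 to 932, limma adjusted p = 0.00469), and its neighbour on chromosome 5, LUM, lumican, 186 and 52.5 against 6.28 and 7.08 (-3.70). COL3A1, a fibrillar collagen, had 12636 and 7644 against 121 and 607 (-5.17, limma adjusted p = 0.0244), and COL5A2, which lies beside it on chromosome 15, 1345 and 822 against 231 and 386 (-1.81). TNC, tenascin C, had 12383 and 9553 against 1329 and 2053 (-2.72), and POSTN, periostin, 422 and 183 against 15.7 and 42.5 (-3.37). Both pESCLC-F samples were below both outgrowths for all of these, with PDGFRB, a receptor of mesenchymal cells, at -2.40. COL1A1 and COL1A2, the chains of type I collagen, had 2053 and 1318 against 1661 and 4059.9 and 2863 and 2139 against 533 and 1680.0, and neither was called. VIM, vimentin, had 4892 and 4252 against 4344 and 5726 (not called). The summed level of the 32 list members in the table was 70708 and 65898 in the outgrowths and 46028 and 51765 in pESCLC-F, with FBLN2 the most abundant at 15040, 19115, 12047 and 13773, and DPT at 0 in all 4. Among 9 endothelial genes tested, EMCN, endomucin, which passed the filter through the outgrowths only, was lower (60.0 and 29.5 against no read, at least 29.5-fold lower against a floor of 3 reads over the group), and was not called without pESCLC-primary replicate 2. Of 9 blood and macrophage genes none was called by limma or DESeq2 and 2 had an unadjusted limma p no higher than 0.05, with TYROBP and HBB at 0. The part of these cells in the results was not tested.

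CXCL14, a chemokine of epithelia and the stroma (chr2:137803988-137813118), had 7567 and 4901 in the outgrowths and 62.8 and 48.5 in pESCLC-F, 112-fold lower by the group means, the lowest adjusted p among the genes named here (-6.76 ± 0.25, limma adjusted p = 0.00156). COL2A1, the collagen of cartilage and notochord, had 3787 and 4903 against 375 and 50.6 (-4.95), with the pESCLC-F samples differing from each other. COL3A1 and TNC, given above, were abundant genes that fell too. Among other abundant genes, smaller falls were seen in C4BPA, a complement regulator (5436 and 5129 against 2479 and 1778), SEMA3F, a guidance ligand (2565 and 2765 against 1301 and 1303), and SERPING1, the inhibitor of complement C1 (2591 and 2730.4 against 1696 and 1340.2), at -1.33, -1.03 and -0.82. Among the 12 genes with the lowest fold changes, 4 more were in no list used here. All 4 passed the filter on low values through the outgrowths only and had to be lower. LIX1 had 308 and 92.9 against 0 and 1.01 (401), GRM4, a glutamate receptor, 141 and 125 against 1.05 and 0 (259), TRIM29 91.5 and 215 against 0 and 2.02 (146) and KANK4 68.9 and 95.1 against 0 and 1.01 (158), with the ratio of the groups in brackets and 95% exact counting intervals of 71.5 to 15862, 46.02 to 10256, 40.0 to 1211 and 27.95 to 6281.

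In the remaining signaling lists limma called few genes and DESeq2 more. Of 31 BMP genes tested, 3 were lower, the ligand GDF6 (39.3 and 40.4 against 0 and 1.01, ratio 77.5, 95% exact counting interval 13.5 to 3100.4), the target MSX1 (843 and 272 against 23.0 and 33.4, -4.06) and SMAD9 (77.7 and 64.5 against 10.5 and 7.08, -2.90). NBL1, a BMP antagonist, was higher (193 and 132 against 540.1 and 644, 1.88), and the median was -0.33. GDF6 passed the filter through the outgrowths only and had to be lower. DESeq2 called 4 BMP genes higher and 7 lower, and 18 had an unadjusted limma p no higher than 0.05, while without pESCLC-primary replicate 2, pESCLC-F replicate 1 or pESCLC-F replicate 2 limma called 1, 5 and 2 lower. Of 35 TGFB and Nodal genes, 2 were higher and none was lower (median 0.24), with 8 higher and 3 lower by DESeq2 and 16 at an unadjusted limma p no higher than 0.05. The direction of the calls by limma turned with the pESCLC-F sample that was kept, with none higher and 3 lower without replicate 1 and 4 higher and none lower without replicate 2. Of 36 FGF and ERK genes, MAP2K1 was higher (1052 and 1003 against 2071 and 1782, 0.90) and the receptor FGFR2 lower (2548 and 2162 against 1361 and 1093, -0.94), with a median of 0.16, 2 higher and 5 lower by DESeq2 and 11 at such an unadjusted p. Without pESCLC-F replicate 1 or 2 limma called none or 2 of these higher and 1 or none lower. Of 21 LIF and JAK-STAT genes 1 was higher, the cytokine IL11 (22.6 and 37.2 against 127 and 142, 2.17), which was not called with any 1 of the 4 libraries left out. Of 14 NOTCH genes none was called by limma, 4 were called by DESeq2 and 5 had an unadjusted limma p no higher than 0.05.

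Several genes of the response to low oxygen were higher in pESCLC-F. Of 23 tested, 8 were higher and none was lower, with a median of 0.90, and without pESCLC-primary replicate 1 or 2 or pESCLC-F replicate 1 or 2 limma called 0, 1, 3 and 3. ADM, adrenomedullin, had 208 and 172 against 857 and 638 (1.96, limma adjusted p = 0.0164), NDRG1 658 and 627 against 4429.6 and 1942 (2.19) and the oxygen sensor EGLN3 477 and 302 against 1013 and 977 (1.39). P4HA1 and P4HA2, which hydroxylate collagen, rose by 1.58 and 0.79, and VEGFA and PDK1 by 0.86 and 0.90. Both pESCLC-F samples were above both outgrowths in all 8. PFKFB3, DDIT4 and BHLHE40, chosen after their values were seen, had 4878 and 958, 3790.1 and 785 and 457 and 68.9 in outgrowth replicates 1 and 2, so that the outgrowths differed from each other, and were not called. Of 21 glycolysis genes, PGK1 and PDK1 were higher and none was lower (median 0.43), with 8 higher by DESeq2 and none called without pESCLC-primary replicate 2 or pESCLC-F replicate 1.

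Of 19 targets and effectors of the Hippo pathway, 4 were higher and 2 lower (median 0.38), against 2 higher and none lower without pESCLC-primary replicate 2. ANKRD1, a target of YAP, had 216 and 598 against 2583 and 3304 (3.02, limma adjusted p = 0.0297), WWTR1, which encodes the coactivator TAZ, 408 and 461 against 1129 and 1077 (1.34), and MYOF and F3 were given above. AXL, a receptor kinase (373 and 328 against 100.5 and 81.9, -1.93), and FJX1 (232 and 149.7 against 11.5 and 13.1, -3.82) were lower. The list thus held called genes in both directions. Of 17 genes of lipid transport and storage, 3 were higher and FABP5, a fatty acid carrier, was lower (381 and 284 against 18.8 and 18.2, -4.08, limma adjusted p = 0.00759). The median of the 17 was 0.60, DESeq2 called 9 higher and 1 lower, and 11 had an unadjusted limma p no higher than 0.05. Of 37 matrix genes 6 were higher and 2 lower (median 0.37), with 1, 7 and 3 higher and none lower without pESCLC-primary replicate 2, pESCLC-F replicate 1 or pESCLC-F replicate 2, and 14 higher and 4 lower by DESeq2. Of 30 genes of epithelial junctions and keratins 2 were higher (median 0.25), with none called without pESCLC-primary replicate 2 or pESCLC-F replicate 1.

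No gene was called by limma among 30 genes of the cell cycle, 25 of DNA methylation and chromatin, 22 of cholesterol synthesis, 21 ribosomal proteins, 13 of the mitochondrial genome, 18 of the interferon response, 14 of inflammation and 4 of the germ line. Their medians lay between -0.26 and 0.41, but for the germ line at -1.07. DESeq2 called 3 of inflammation, 4 of the mitochondrial genome, 4 of cholesterol synthesis, 2 of the cell cycle, 1 of DNA methylation and none of the others, and 6, 4, 7, 6 and 6 of these 5 lists had an unadjusted limma p no higher than 0.05, as had 1 ribosomal, 2 interferon and 1 germ line gene. Of 20 stress genes ATF3 was higher (1.59), of 21 p53 genes SESN1 was higher (0.89) and IGFBP5 lower (-2.17), and of 25 mesoderm genes, 3 of which passed the filter through the outgrowths only, HAND1 was lower and was 1 of the 3, while TBXT, the factor of the primitive streak, missed the threshold with 174 and 28.4 against 2.09 and 1.01 (ratio 68.1, 95% exact counting interval 23.0 to 333, limma adjusted p = 0.0507). DNMT1, which maintains DNA methylation, had 5036 and 4880.5 against 4960.2 and 4775.

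**Figure D4:**
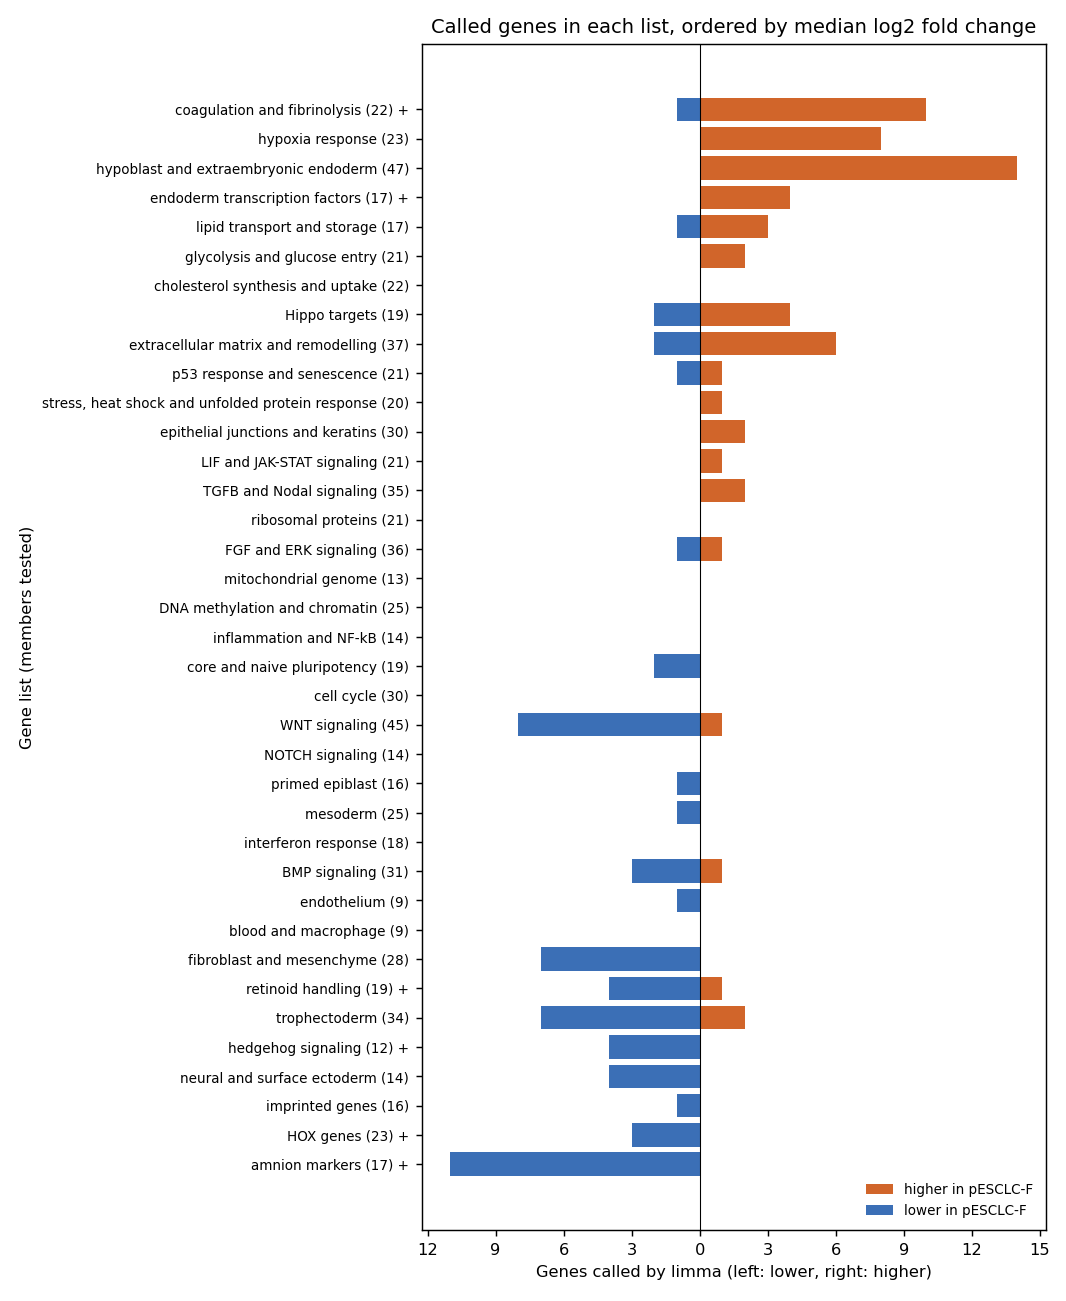
Number of genes called by limma in each list with at least 9 members tested (number in brackets), higher in pESCLC-F to the right in orange and lower to the left in blue, ordered by median log2 fold change. Lists marked + were drawn up after values were seen. The hypoblast list has 14 called higher and none lower, and the amnion list 11 lower and none higher.

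Some imprinted genes, which are expressed from 1 parental copy, differed between the pESCLC-F samples. Of 16 tested, SGCE was lower (137 and 75.4 against 13.6 and 17.2, -2.65, limma adjusted p = 0.0402), none was higher and the median was -1.96, with 6 and 2 lower without pESCLC-F replicate 1 or 2. PEG3 had 478 and 574 in the outgrowths and 553 and 3.03 in pESCLC-F replicates 1 and 2, and NDN had 1152 and 1307 and 1293 and 18.2. In both genes replicate 1 of pESCLC-F lay within or near the range of the outgrowths and replicate 2 was far below all other libraries. PEG10, next to SGCE on chromosome 9 at chr9:74474121-74486983, had 2715 and 2127 and 643 and 5.06, NAP1L5 25.6 and 48.1 and 15.7 and 0, and PLAGL1 306 and 193 and 98.4 and 9.10. Here too replicate 2 was the lowest, and replicate 1 was below both outgrowths. None of these 5 was called, with log2 fold changes of -3.47, -2.96, -5.27, -3.14 and -2.95 and limma adjusted p of 0.398, 0.398, 0.192, 0.243 and 0.169. All 5 are known in mammals as genes of the paternal copy, as are MEST, which had 2642 and 1027 against 476 and 368, DLK1, 164 and 186 against 36.6 and 10.1, and DIRAS3, 199.7 and 359.6 against 506 and 98.1. Replicate 2 of pESCLC-F was the lowest library in these 3 genes too, and none of them was called. For SGCE it was not the lowest, with 13.6 in replicate 1 of pESCLC-F and 17.2 in replicate 2. IGF2R, CDKN1C and PHLDA2, known as genes of the maternal copy, had 3946 and 3877 against 4427 and 4566, 439.7 and 589 against 803 and 874 and 40.3 and 77.6 against 95.2 and 106, and replicate 2 of pESCLC-F was not low in them. All of these genes but SGCE were named after their values were seen.

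**Figure D5:**
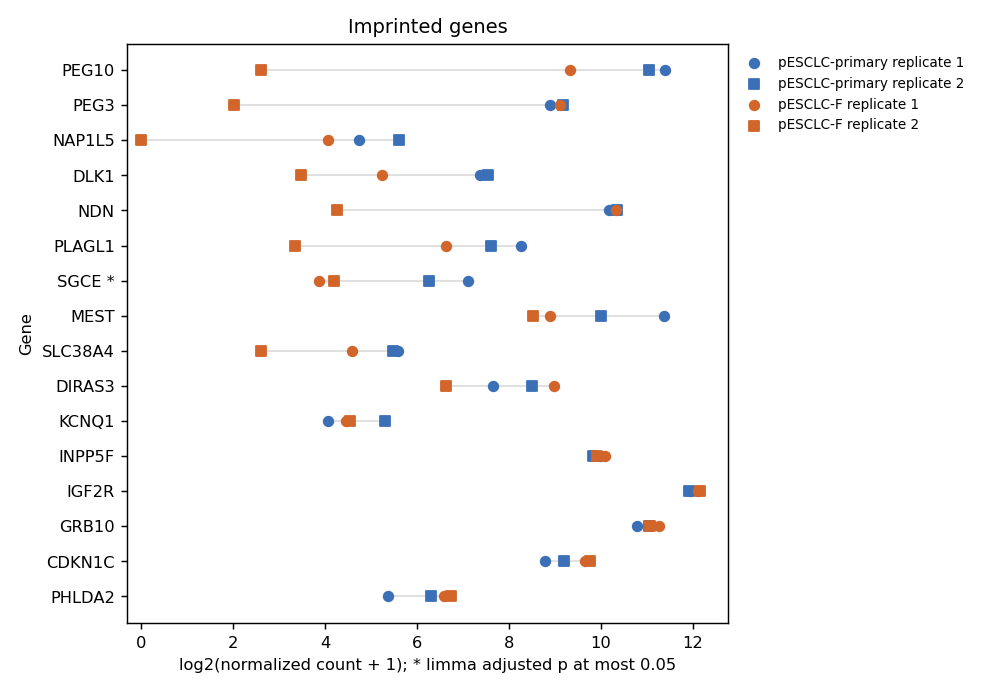
Normalized counts, as log2(value + 1), of the 16 imprinted genes tested in each of the 4 libraries, with an asterisk on SGCE, the gene called by limma. The orange square of pESCLC-F replicate 2 lies far left of the other 3 libraries for PEG10, PEG3, NDN and PLAGL1 and at 0 for NAP1L5.

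The called genes were also read in the other 10 samples, as a description. Of the 201 genes that were higher, 132 (65.7%) had both pESCLC-F samples above all other 12 samples, a pattern of 1170 (8.37%) of all genes tested. Of the 245 that were lower, 106 (43.3%) had both pESCLC-F samples below all other 12, against 675 (4.83%) of all genes, and 41 (16.7%) had both outgrowths above all other 12, against 312 (2.23%). These shares use the samples of the comparison itself. AFP and TFF2 had no read in the other 10 samples, and HNF4A, FOXA2 and GATA4 reached at most 15.7, 11.5 and 17.5 there. WNT6 reached at most 47.3 and TP63 17.7 there, below both outgrowths. FABP5, named after its values were seen, was between 1001 and 4908 in the other 10 samples and MSX1, likewise, between 139 and 4717, above the 18.8 and 18.2 and 23.0 and 33.4 of pESCLC-F in each. By chromosome, 16 of 367 genes tested on X were higher (4.36%) and 10 lower (2.72%), beside 163 and 213 of the 10911 genes that could be placed. Of all genes tested, 1.44% were higher and 1.75% lower.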

How the data were processed

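RNA of the 4 samples was made into stranded mRNA libraries and sequenced. The deposited values are a signal per gene, normalized counts that the authors obtained by aligning reads to the pig assembly Sscrofa11.1 with TopHat2 2.1.0, counting reads per gene with HTSeq at default settings, which leave out reads that overlap 2 genes, and scaling each of the 14 samples by its DESeq2 size factor. The annotation release is not given in the sources used here, and near-identical, overlapping and antisense genes are uncertain. All values were whole multiples of the value of 1 read, which gave back whole reads. Ensembl identifiers were matched to symbols for 14151 of 19588 genes, and to coordinates by symbol.

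Genes with 10 or more normalized counts in 2 or more of the 4 samples entered limma 3.58.1 in R 4.3.3, as log2(normalized count + 1) with a trend and no covariate, and p-values were adjusted over all 13977 genes. A fold change on this scale understates the change of low genes. DESeq2 1.42.0 and edgeR 4.0.16 on the recovered reads, other pseudocounts, filters and size factors, a replicate block, one fit over all samples and leaving out each sample were the alternatives, and the fits were tested on simulated data. Where a group had no read, a fold is a bound against 3 reads over the group, and where it had 1 to 3 reads, a ratio with a 95% exact counting interval, which covers counting error only. The text names the 12 called genes with the highest and lowest fold change and a symbol, the 8 most abundant called genes in each direction, called or defining members of 34 gene lists and genes discussed by the study; 6 further lists and genes marked in the text were chosen after their values were seen. The comparison and all lists were chosen with earlier results of these data known. A few genes that the rule names are not reported here.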

Additional observations from a re-analysis of the deposited data

How the results depend on the processing

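The 446 called genes became 158 with all genes above 0 tested, 187 with one fit over the 14 samples (18.2% of them higher, against 45.1%), 1325 with DESeq2, and between 8 and 491 with 1 library left out. The 160 DEGs became 81 with all genes above 0, 97 with a minimum of 50 normalized counts, 284 when a fold of 3 was enough, and between 6 and 222 with 1 library left out. Without pESCLC-primary replicate 1, 8 genes were called and 6 were DEGs, and without pESCLC-primary replicate 2 these counts were 106 and 59. Without pESCLC-F replicate 1 and without pESCLC-F replicate 2, 491 and 337 genes were called, of which 293 and 234 were among the 446. With a library left out, the lone sample of its group was assumed to vary like the others. The cause of these differences was not tested, except that the filters changed the number of genes tested. The remaining settings called between 352 and 551 genes. With a minimum of 50 normalized counts more of the called genes were higher than lower (193 and 174), unlike in the main fit. LEFTY2, a Nodal inhibitor that was not called (log2 fold change 0.04), had -1.31 without pESCLC-F replicate 1 and 1.39 without pESCLC-F replicate 2 (limma adjusted p = 0.0118 and 0.0131), with 6281 and 967 normalized counts in pESCLC-F. Samples with the same replicate number did not deviate together from the means of their groups (r = -0.0450 over 13977 genes). This 1 correlation cannot decide whether samples were paired by embryo, since the source outgrowths are not given. A replicate block gave 551 called genes and 179 DEGs. List medians with genes at 0 set to their bound were the same to 2 decimals as those given, and the median of all genes stayed between -0.01 and 0.05 on the log2 scale under every setting. At these depths 5611 genes, with fewer than 10 normalized counts in at least 3 of the 4 libraries, were not tested.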
